A study of Homo sapiens with 14 samples.

Results

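The 6 genes described here are PSTK, SEPHS2, SEPSECS, SECISBP2 and EEFSEC, the factors that make selenocysteine and insert it into proteins, and GPX4, one of the selenocysteine-containing enzymes they serve. Members were all rows of the 4 guide count tables that carry one of these symbols, which gave 6 of 19114 genes with 24 of 77441 guides in each knockout screen, and 6 of 18886 genes with 18 of 56762 guides in each activation screen. All 6 symbols are current. The genes were selected on fold changes of guide counts in these same screens, with results already known, and the comparison used is not recorded. Every fold below is therefore given as a description with no test.

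RKO and SW620 are established cell lines from human colorectal carcinomas. Each was sampled at day 0, after 20 days without drug and after 20 days in oxaliplatin, a platinum drug that crosslinks DNA. RKO received 1.9 µM, and SW620 received 0.38 or 0.5 µM. Knockout cells carried Cas9 and the Brunello library, which cuts the coding sequence. Activation cells carried dCas9-VP64, a Cas9 that does not cut fused to a transcriptional activator, and the Calabrese library, whose guides point it at promoters. Guides were delivered at a multiplicity of infection of about 0.3, so that most infected cells held a single guide, and each library is DNA from a pool of such cells. A count therefore measures how many cells carried a guide, not expression of its target, and fewer surviving cells cannot be told apart from slower growth. The series asked which genes change how these cells fare under oxaliplatin.

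Selenocysteine is built on its own transfer RNA. The tRNA is first charged with serine, PSTK phosphorylates that serine, SEPHS2 makes the activated selenium donor selenophosphate, and SEPSECS joins the selenium to give the finished selenocysteinyl-tRNA. SECISBP2 binds a hairpin in the tail of a selenoprotein mRNA, and the elongation factor EEFSEC carries the charged tRNA to the ribosome, where a UGA codon is then read as selenocysteine and not as a stop. SEPHS2 is itself a selenoprotein. GPX4 reduces lipid peroxides in membranes, and its loss is known to permit ferroptosis, an iron-dependent form of cell death.

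Totals ran from 31699260 to 69526489 counts in the knockout and from 3647823 to 57502347 in the activation libraries. Counts were concentrated in few guides under drug. In treated RKO knockout 41.4% of counts fell on the most abundant 1% of guides, in SW620 knockout at 0.5 µM 31.5%, and in treated RKO activation 52.8%, where 14.3% of guides were at 0. Each condition had 1 library, so no difference could be set against the spread between cultures. The yardstick used instead is the spread of guides that match no gene, 1000 in knockout and 496 in activation, taken from percentile 5 to percentile 95 and called the non-targeting range. A gene was called higher or lower where the median log2 fold of its guides was past 1 and the majority of its guides lay outside that range on the same side. SDs given with medians are over a gene's guides, which are separate perturbations in the same libraries and not replicates of a condition.

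Without drug, 1 of the 6 genes, PSTK, was called lower in RKO, just past the threshold, beside 11.6% of all 19078 genes called lower. PSTK had a median log2 fold of -1.0 from day 0 to day 20 (SD 0.36, 4 guides), EEFSEC of -0.84 (SD 0.72), SEPHS2 of -0.81 (SD 0.39) and SEPSECS of -0.80 (SD 0.45). In these 4 genes each of the 4 guides was below 0. SECISBP2 lay at -0.13 (SD 0.53) with 1 of 4 guides above 0, and GPX4 at 0.01 (SD 0.37) with 2 of 4 above 0. The non-targeting range here was 0.002 to 0.90, so 0 was just under its lower end. Below that range lay 3 of 4 SECISBP2 guides and 2 of 4 GPX4 guides. Of the 24 guides of the 6 genes 21 lay below it, beside 44.8% of all targeting guides. Guides against olfactory receptor genes cut DNA, as non-targeting guides do not, and had a median of 0.18 against 0.51. Below their 5th percentile, -0.80, lay 10 of the 24 guides. The share of all targeting guides below that value was not counted. EEFSEC was the nearest of the 6 genes short of the threshold. Of all genes, 11.6% had a median below that of PSTK, 12.6% below EEFSEC, 12.7% below SEPHS2 and 12.8% below SEPSECS. The PSTK call ended with the authors' scaling, at a median of -0.98, and with guides scaled to the non-targeting guides PSTK, SEPHS2, SEPSECS and EEFSEC were all called lower.

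**Figure D1:**
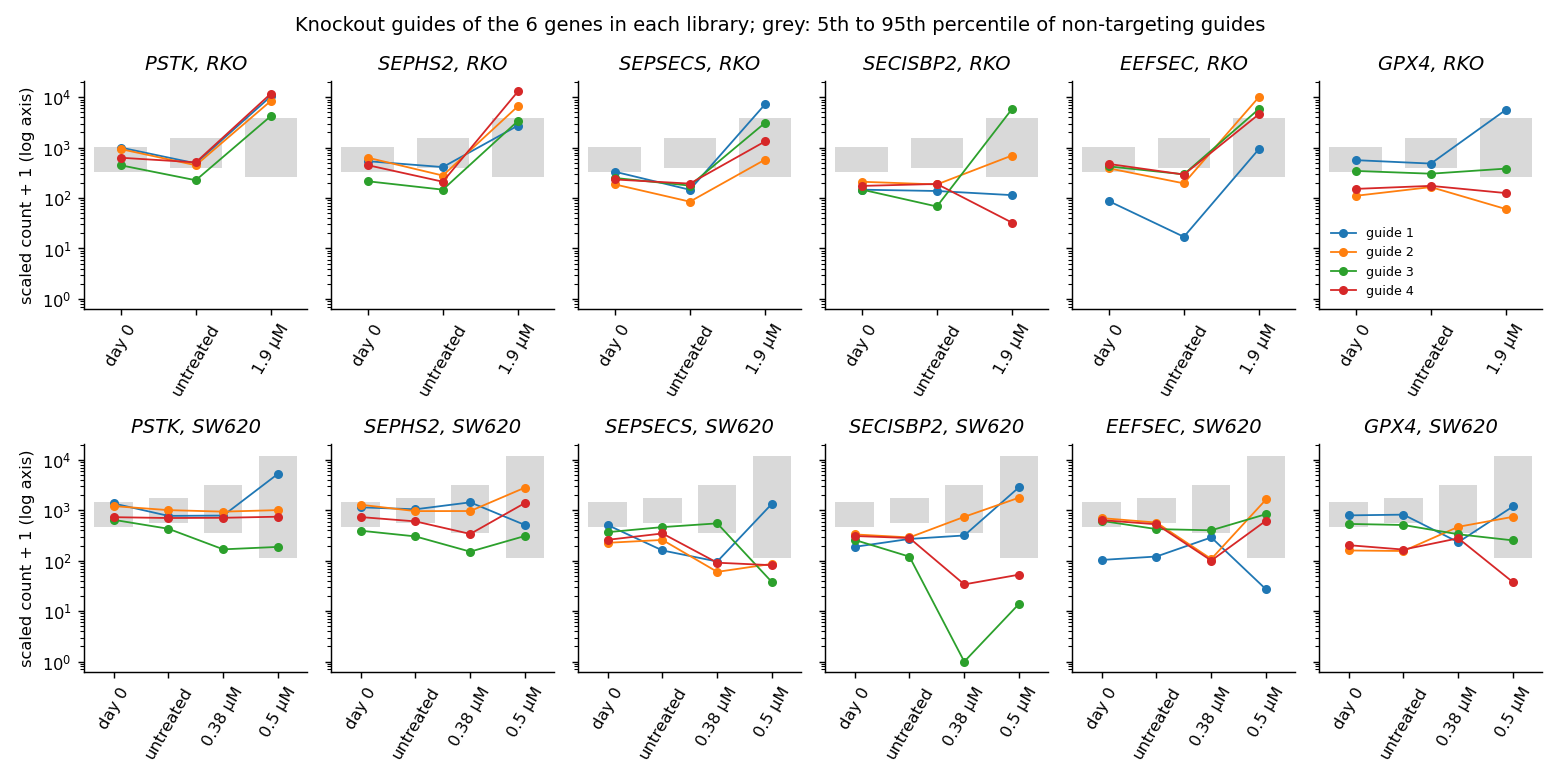
Scaled counts plus 1 (log axis) of the 4 knockout guides of each gene in every RKO (top) and SW620 (bottom) library; lines join 1 guide across libraries and grey bars span the non-targeting range of levels. In RKO the guides of PSTK, SEPHS2, SEPSECS and EEFSEC dip without drug and climb under 1.9 µM oxaliplatin, while SECISBP2 and GPX4 each have 1 guide that climbs far above its others; in SW620 under drug no gene has all its guides moving one way from untreated cells.

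Under oxaliplatin in RKO, cells that had lost PSTK, SEPHS2, SEPSECS or EEFSEC became far more abundant relative to untreated cells. PSTK, the kinase of the seryl-tRNA, had the most even guides. Its 4 guides stood between 446 and 1002 scaled counts at day 0, between 224 and 509 in untreated cells, and between 4242 and 11799 under drug. The lowest treated PSTK guide thus lay above the highest guide of both other libraries, as it did for SEPHS2, SEPSECS and EEFSEC below. How many of all genes separate in this way was not counted, so the separation is not read as particular to these genes. The median log2 fold over untreated cells was 4.32 (SD 0.15), a 20.0-fold difference, and PSTK was number 28 of 18449 genes by this median.

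SEPHS2, the selenophosphate synthetase, had guides between 214 and 631 scaled counts at day 0, 146 and 410 untreated, and 2738 and 13025 under drug. Again the lowest treated guide stood above the highest untreated one. The median log2 fold was 4.52 (SD 1.31; guides from 2.72 to 5.92), number 24 of all genes. SEPSECS, which completes the selenocysteinyl-tRNA, had guides between 186 and 332 at day 0, 83.8 and 192 untreated, and 576 and 7188 under drug. Its guides spread more widely, from 2.71 to 5.58, around a median of 3.43 (SD 1.36), number 61.

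EEFSEC, the elongation factor, had the largest median of the 6 genes, 4.89 (SD 0.85; guides from 3.96 to 5.66), which made it number 20. Guides 2, 3 and 4 stood between 388 and 474 at day 0, between 195 and 294 untreated, and between 4610 and 10113 under drug. Guide 1 was rare throughout, with 113, 22 and 506 counts, and its scaled count still went from 16.0 untreated to 940 under drug. Its log2 fold of 5.49 has a counting interval of 5.26 to 6.56 (95%, exact Clopper-Pearson, covering counting error only). In the order EEFSEC, SEPHS2, PSTK and SEPSECS, neighbours overlapped in the ranges of their guides.

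SECISBP2 and GPX4 did not share this. The guides of SECISBP2, the hairpin-binding protein, split: guide 3 went from 67.0 scaled counts untreated to 5823 under drug, a log2 fold of 6.34, and guide 2 from 185 to 696. Guide 1 stood at 137 and 113, and guide 4 dropped from 189 to 31.6. The median of 0.81 (SD 3.74) therefore describes no single guide. GPX4 behaved alike in this respect, with guide 1 going from 482 to 5648 (log2 fold 3.54) and guides 2, 3 and 4 at -1.39, 0.33 and -0.46. Its median was -0.07 (SD 2.14), and 44.9% of genes had a lower median.

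In all, 4 of 6 genes were called higher in treated RKO over untreated cells and none lower, beside 1.59% of 18449 genes called higher. The share is printed for scale only, since this comparison was open to the choice of genes. Of the 24 guides 18 lay above the non-targeting range, which reached from -1.18 to 1.96, and 2 lay below it, beside 9.51% and 16.2% of all targeting guides. The same number, 18, lay above the 95th percentile of guides against olfactory receptor genes, which cut DNA at genes not known to matter in these cells (2.27). The 24 guides made up 0.0310% of the library and held 0.0231% of untreated counts (95% Wilson interval 0.0226 to 0.0236%) against 0.171% of treated counts (0.169 to 0.172%). These intervals cover counting error only and do not test treated against untreated cells.

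The treated levels of these 4 genes also exceeded those at day 0. Treated cells over day 0 gave medians of 3.67 for SEPHS2 (SD 1.05), 3.57 for EEFSEC (SD 0.65), 3.31 for PSTK (SD 0.49) and 3.05 for SEPSECS (SD 1.24). That is 4 of 6 called higher and none lower, beside 0.325% of 19081 genes called higher and 15.3% called lower. The non-targeting range reached from -0.69 to 2.39, with a median of 0.74. SEPHS2 guide 1 at 2.34 and SEPSECS guide 2 at 1.60 lay inside it, and the other guides of these 4 genes lay above it. SECISBP2 lay at 0.68 (SD 3.23) and GPX4 at -0.06 (SD 1.86). Both comparisons use the same treated library.

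**Figure D2:**
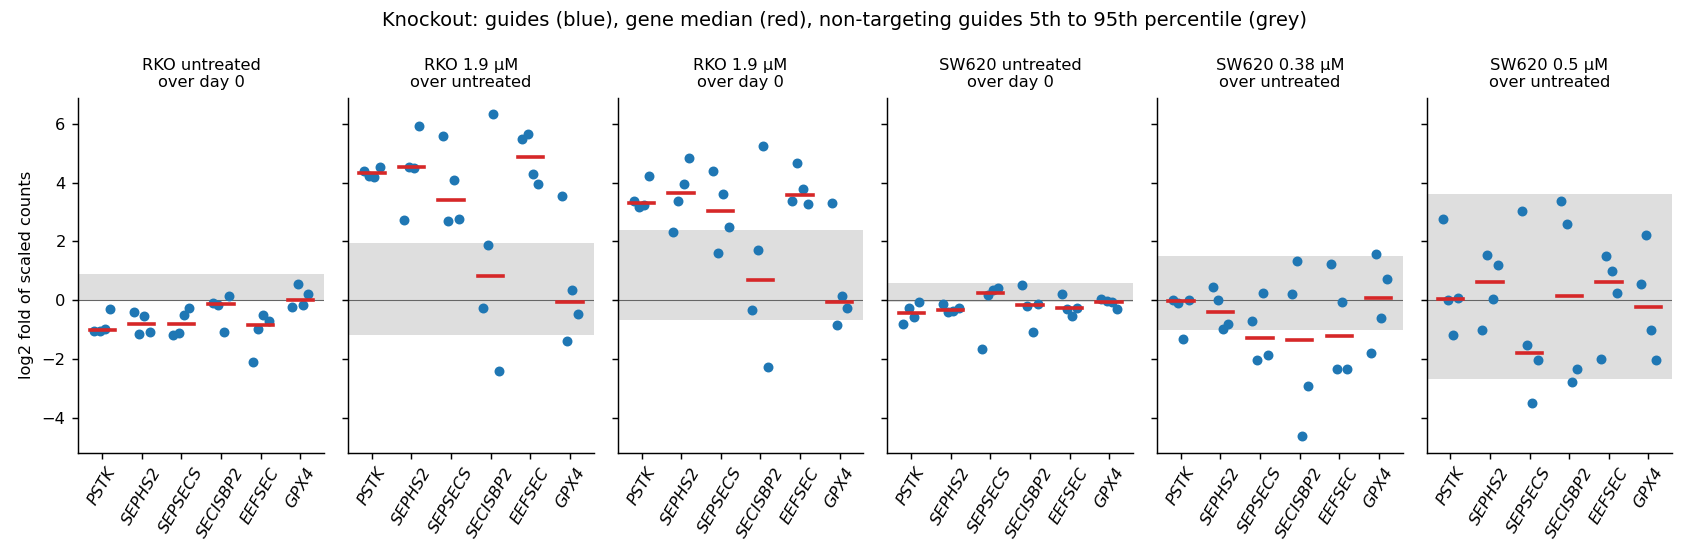
Log2 fold of scaled counts (y axis) of each knockout guide (blue dots), with the gene median (red line) and the non-targeting range (grey band), in 6 comparisons. In RKO under 1.9 µM oxaliplatin every guide of PSTK, SEPHS2, SEPSECS and EEFSEC lies above the band over untreated cells; the band is widest in SW620 at 0.5 µM.

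In SW620 none of the 6 genes was called without drug or at either dose over untreated cells. Without drug the medians of PSTK, SEPHS2, SEPSECS and EEFSEC were closer to 0 than in RKO, and the medians of all genes had an SD of 0.29 against 0.99 in RKO. The medians were PSTK -0.42 (SD 0.34), SEPHS2 -0.33 (SD 0.13), EEFSEC -0.28 (SD 0.32), SECISBP2 -0.16 (SD 0.65), GPX4 -0.05 (SD 0.14) and SEPSECS 0.26 (SD 0.98). Of 19100 genes, 1.2% were called lower and 0% higher. By position among all genes PSTK, SEPHS2 and EEFSEC lay as low as in RKO or lower, with 7.72%, 10.6% and 12.5% of genes below them, whereas 88.4% lay below SEPSECS. PSTK and SEPHS2 were the genes with all 4 guides below 0. The non-targeting range was -0.07 to 0.58, and 15 of the 24 guides lay below it, beside 38.1% of all targeting guides. Below the 5th percentile of olfactory receptor guides, -0.40, lay 6 of the 24.

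At 0.38 µM the medians over untreated cells were -1.34 for SECISBP2 (SD 2.76), -1.29 for SEPSECS (SD 1.07), -1.21 for EEFSEC (SD 1.77), -0.41 for SEPHS2 (SD 0.68), -0.04 for PSTK (SD 0.66) and 0.06 for GPX4 (SD 1.48). The first 3 were past 1 but had only 2 of 4 guides below the non-targeting range, so none of the 6 genes was called, beside 3.85% of 19092 genes called lower and 0.361% called higher. Guides of the same gene disagreed, with log2 folds from -2.03 to 0.24 in SEPSECS and from -1.80 to 1.57 in GPX4. EEFSEC guides 2 and 4 went from 570 and 528 scaled counts to 107 and 99.8. Its guide 3 stood at 423 and 401, and its guide 1 went up from 120 to 289. SECISBP2 guide 3, the guide that was most enriched in treated RKO, had 0 counts here against 148 untreated, which is at least 47.1-fold lower against a floor of 3 counts in the treated library. Against day 0 the median of SEPSECS was -1.66 (SD 1.29) and that gene alone was called lower, beside 7.26% of 19100 genes called lower and 0.152% called higher. The call was lost when the range of olfactory receptor guides was used.

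At 0.5 µM the yardstick itself was wide, from -2.68 to 3.63, and none of the 6 genes was called, beside 2.51% of 19091 genes called lower and 0.194% called higher. Medians over untreated cells ran from -1.79 for SEPSECS (SD 2.83) to 0.62 for SEPHS2 (SD 1.18), with PSTK at 0.04, SECISBP2 at 0.14, GPX4 at -0.23 and EEFSEC at 0.61. PSTK guide 1 went from 775 to 5308 scaled counts, while guides 2 and 4 stood at 1008 and 703 untreated and at 1009 and 746 under drug. Of the 4 high RKO medians, those of EEFSEC, SEPHS2 and PSTK would have lain above this range and that of SEPSECS within it. Against day 0 no gene of the 6 was called, beside 5.99% called lower and 0.0942% called higher. Between the doses, 0.5 over 0.38 µM, medians ran from 0.13 for PSTK to 1.82 for EEFSEC (SD 3.10) with none called, beside 1.77% called lower and 0.379% called higher.

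Subtracting the SW620 fold from the RKO fold guide by guide gives the size of the difference between lines, at doses that were not matched. Over untreated cells, RKO at 1.9 µM minus SW620 at 0.38 µM gave medians of 5.34 for EEFSEC (SD 1.79), 5.01 for SEPHS2 (SD 1.89), 4.69 for SEPSECS (SD 1.02) and 4.45 for PSTK (SD 0.57). Every guide of these genes lay above the non-targeting range of -1.86 to 2.26. SECISBP2 lay at 0.52 (SD 5.42) and GPX4 at -0.13 (SD 3.58). That is 4 of 6 genes called higher in RKO, beside 2.33% of 18440 genes called higher and 1.15% called lower. Against SW620 at 0.5 µM the 4 medians were 3.93 to 4.52 and the same 4 genes were called, beside 2.07% of 18442 genes called higher and 0.244% called lower, although none was called with the wider range of olfactory receptor guides. Without drug the lines differed less: SEPSECS had a median of -0.75 in RKO minus SW620, EEFSEC -0.55 and SEPHS2 -0.50, with none of the 6 called beside 9.96% called lower and 0.105% called higher.

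Other genes of the pathway were taken from lists. Of 23 other selenoproteins, none was called in untreated RKO, where their median was 0.10 beside 0.09 for all genes. Under oxaliplatin in RKO 1 of 23 was called higher and none lower, with a list median of 0.29 beside 0.03 for all genes. That gene was TXNRD1, the cytosolic thioredoxin reductase, an antioxidant enzyme with selenocysteine in its active site. Its 3 countable guides stood at 388, 706 and 325 scaled counts at day 0, at 212, 543 and 202 untreated and at 3170, 3003 and 2949 under drug, and the remaining guide had 0, 3 and 0 counts. The median of TXNRD1 was 3.84 over untreated cells (SD 0.81, number 41) and 3.01 over day 0 (SD 0.59). In untreated RKO it was -0.67, nearer to PSTK, EEFSEC, SEPHS2 and SEPSECS (-1.0 to -0.80) than to SECISBP2 (-0.13). In SW620 the median of TXNRD1 was 0.00 at 0.38 µM (SD 0.45) and 0.96 at 0.5 µM (SD 3.41). RKO minus SW620 gave 3.62 against 0.38 µM, called higher, and 1.5 against 0.5 µM (SD 3.74), not called. Of the same list, SELENOH was also called higher in RKO minus SW620, at 2.59 against 0.38 µM and 4.23 against 0.5 µM. SELENOP was called lower against 0.38 µM, at -2.33. Of all genes, 2.33% were called higher and 1.15% lower against 0.38 µM, and 2.07% and 0.244% against 0.5 µM. In SW620 the list held no call without drug or at 0.38 µM, and at 0.5 µM 2 of 23 were lower, SELENOM at -3.58 and SELENOS at -3.03, beside 2.51% of all genes.

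**Figure D3:**
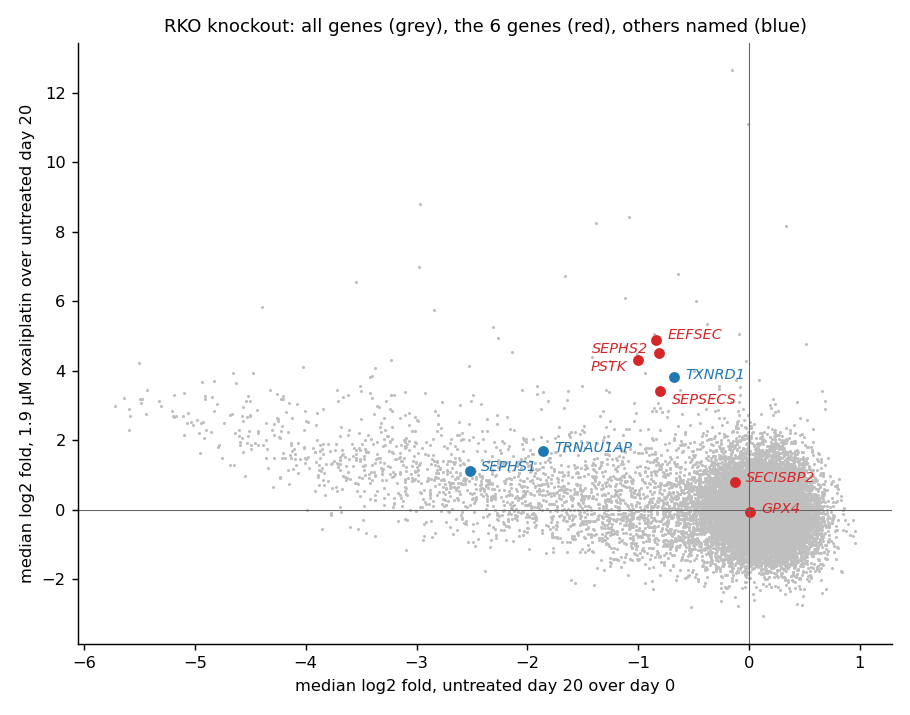
Gene medians of log2 folds in RKO knockout, untreated day 20 over day 0 (x axis) against 1.9 µM oxaliplatin over untreated day 20 (y axis); grey dots are all genes tested in both, red the 6 genes and blue 3 others of the pathway. EEFSEC, SEPHS2, PSTK, SEPSECS and TXNRD1 lie together left of 0 and high, whereas SECISBP2 and GPX4 lie within the main cloud. Both axes use the untreated library, so its own scatter enters them with opposite sign.

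Of 11 other selenium supply and tRNA factors, 6 were lower in untreated RKO and none higher, with a list median of -1.76, beside 11.6% of all genes called lower. They were SARS at -4.14, which charges the selenocysteine tRNA with serine and also serves ordinary serine tRNAs, TRIT1 at -2.75, CTU1 at -2.58 and CTU2 at -1.76, which modify several tRNAs, SEPHS1 at -2.52, a relative of SEPHS2 that does not make selenophosphate, and TRNAU1AP at -1.86, a protein that associates with the selenocysteine tRNA. Under oxaliplatin in RKO none of the 11 was called over untreated cells. Of their medians 10 of 11 were above 0, beside 51.6% of all genes, and the list median was 1.13 beside 0.03 for all genes. This fold and the untreated one both use the untreated library, so its scatter enters them with opposite sign. Over day 0, 3 of 11 were lower, SARS at -2.27, TRNAU1AP at -2.0 and CTU1 at -1.36, beside 15.3% of all genes. SEPHS1 lay at 1.13 over untreated cells (SD 0.47, 3 guides) and at -1.30 over day 0 (SD 1.68), so that its median, unlike that of SEPHS2, lay below the starting level. TRNAU1AP lay at 1.68 (SD 2.73) and -2.0 (SD 2.63) in these comparisons. In untreated SW620 1 of 11 was called, SARS at -1.23, beside 1.2% of all genes lower, and none was called at either dose over untreated cells. In RKO minus SW620, 6 of 11 were lower without drug and none higher, beside 9.96% of all genes lower. Against each SW620 dose 2 of 11 were higher and none lower, beside 2.33% of genes higher at 0.38 µM and 2.07% at 0.5 µM.

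Among 22 genes of lipid peroxidation and ferroptosis, 6 were lower in untreated RKO and none higher, beside 11.6% of all genes lower: TFRC, the transferrin receptor, at -4.13, GCLC and GSS of glutathione synthesis at -3.54 and -1.42, DHODH of pyrimidine synthesis at -3.30, COQ2 of ubiquinone synthesis at -2.50 and FTH1, a ferritin chain, at -1.25. The list median was -0.30. Under oxaliplatin in RKO 20 could be measured and 2 were lower, SLC3A2 at -1.90 and SLC7A11 at -1.50, the subunits of the cystine importer that feeds glutathione synthesis, beside 2.74% of all genes. In SW620 at 0.38 µM 2 of 22 were lower, GCLC at -1.93 and FTH1 at -1.52, beside 3.85% of all genes, and none was called without drug or at 0.5 µM. In RKO minus SW620, 4 of 22 were lower without drug and none higher, beside 9.96% of all genes lower. Against 0.38 µM 2 of 20 were higher and 2 lower, beside 2.33% and 1.15% of all genes, and none was called against 0.5 µM.

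Likeness of pattern was measured as the root mean square difference over 5 knockout medians against day 0 (untreated and 1.9 µM in RKO; untreated, 0.38 and 0.5 µM in SW620), which share a day 0 library within each line. Of 19074 genes, the one nearest to the mean of the 5 synthesis factors, apart from the members, was TXNRD1, at 0.25 on the log2 scale. CLEC1A (0.28), FBXW11 (0.40), RCOR1 (0.43) and TAF6L (0.45) followed. Among the members, whose own values enter that mean, PSTK was number 3, EEFSEC number 5, SEPHS2 number 8, SEPSECS number 34 and SECISBP2 number 470, and GPX4 was number 4773. Counted from GPX4, the synthesis factors were far off: SECISBP2 was number 5481 and the other 4 lay between 17448 and 17954. GPX4 and SECISBP2 enter these distances by medians of guides that split. In treated RKO over day 0 the SDs of their guides were 1.86 and 3.23. The 5 genes nearest to GPX4 were KIF25, ZNF426, PMEPA1, CHRFAM7A and ADGRB2, at 0.06 to 0.08, all with medians close to 0.

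Pointing the activator at the 6 promoters gave no common movement. Without drug the medians lay between -0.34 (GPX4, SD 0.25) and 0.38 (PSTK, SD 0.30) in RKO, and between -0.37 (GPX4, SD 0.50) and 0.11 (SEPHS2, SD 0.75) in SW620. None was called, beside 0.703% of 18777 genes called lower in RKO and 0.378% in SW620. GPX4 was the gene whose 3 guides all lay below 0 in both lines.

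Treated RKO activation could not rank these genes. Its non-targeting guides lay from 0.88 to 5.21, far above the median of -0.80 for all genes, and 46.9% of 18763 genes were called lower beside 0.65% higher. SEPSECS was called lower at -3.05 (SD 5.17), yet its guides had 3241, 1 and 3 counts against 1037, 346 and 426 untreated. Each of the other 5 genes also had 1 guide at 6 counts or fewer. Treated counts of GPX4 were 0 for guide 1, 57 for guide 2 and 605 for guide 3. Guide 1 had 537 counts untreated, so it dropped by a factor of at least 12.6 against the floor of 3 counts. For EEFSEC they were 208, 0 and 1340, and guide 2, with 446 untreated, dropped by a factor of at least 10.4.

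In SW620 activation no gene was called at either dose, beside 3.3% of genes lower and 2.24% higher at 0.38 µM and 4.13% and 2.29% at 0.5 µM. The untreated library behind both values was shallow, with a median of 62 counts per guide. At 0.38 µM the medians ran from -1.32 for PSTK (SD 1.32) to 0.40 for EEFSEC (SD 2.11). GPX4 guides had 180, 126 and 151 counts there against 48, 37 and 75 untreated, a median of -0.68 after scaling (SD 0.47), and at 0.5 µM they had 80, 18 and 59 counts and a median of -1.46 (SD 0.80). GPX4 was the gene with all 3 guides below 0 at both doses, which share their untreated library, and 1 of its 3 guides was below the non-targeting range at 0.5 µM. EEFSEC lay at -1.62 (SD 1.88) and SEPHS2 at 1.54 (SD 2.73) at 0.5 µM, each with guides on both sides of 0.

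**Figure D4:**
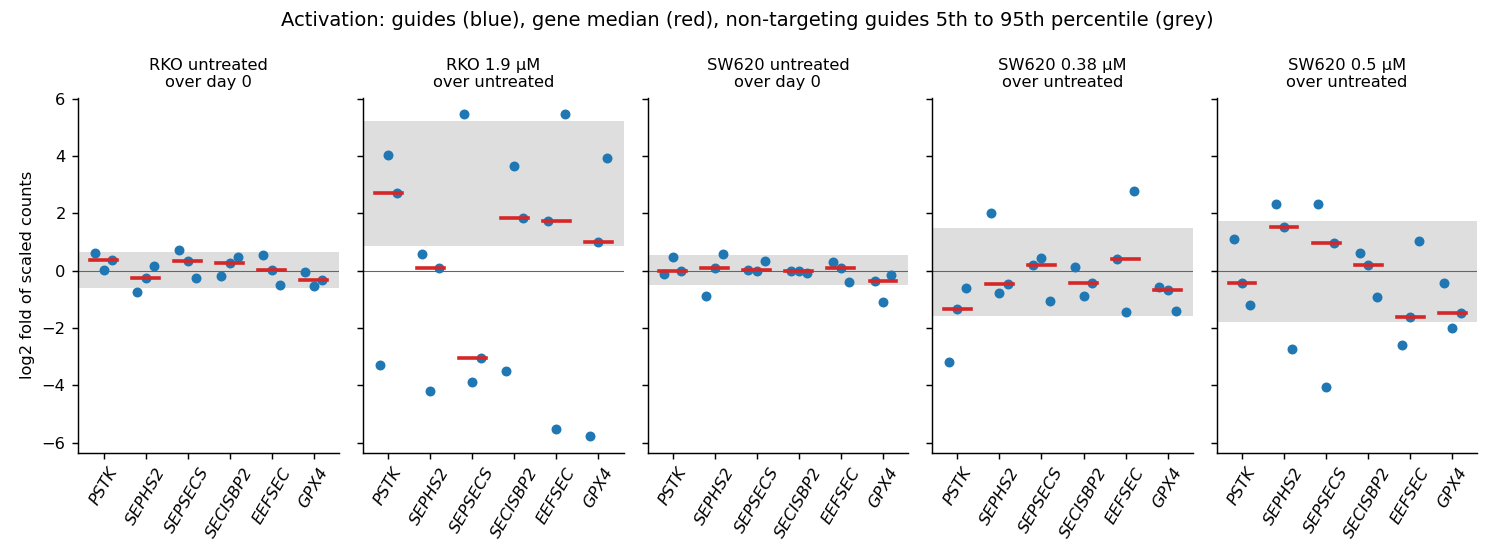
Log2 fold of scaled counts (y axis) of each activation guide (blue dots), with the gene median (red line) and the non-targeting range (grey band), in 5 comparisons. In treated RKO the band lies wholly above 0 and guides of the same gene are widely split (guides at 0 treated counts are placed by the pseudocount and are only bounds). In SW620 at 0.5 µM all 3 GPX4 guides lie below 0.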

How the data were processed

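Guide cassettes were amplified from genomic DNA and sequenced in 14 libraries, 1 per condition. The authors deposited raw counts per guide, in whole numbers, together with normalized values, a signal that proved to be each count column times 1 constant. The submitters' processing notes name MAGeCK 0.5.7 and cutadapt 4.0; their roles and a genome build are not given in the sources used here, so no coordinates are printed. The tables give guides by number only, and guide sequences were not used here.

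Library sizes were equalised with median ratios over guides present in every library of a screen. Log2 folds added a pseudocount of 5 to each scaled value. A guide entered a comparison where its scaled counts averaged 20 or more, and a gene where 3 guides (knockout) or 2 (activation) did so (Python 3.11.15, pandas 2.3.3). The call rule was tested only on counts simulated from RKO knockout day 0 levels. That simulation lacked the concentration of counts in few guides seen under drug, so it does not speak to the treated libraries. Alternatives covered the scaling, pseudocount, filter, gene summary, call rule and single guides.

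The members and the gene lists were chosen with earlier results of these data known. Named genes are the 6 members, the called genes of 3 context lists (or the 2 largest medians of a list without calls), and the 5 genes nearest in pattern to GPX4 and to the mean of the 5 synthesis factors. Intervals and floors describe counting error alone: amplified reads carry no molecular identifiers here and so are not separate molecules. Replicate libraries were not analysed here, so no p-value is given.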

Additional observations from a re-analysis of the deposited data

How the results depend on the processing

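No paired analysis was possible because each condition has 1 library and replicate numbers pair nothing. Of 170 counts of called members under alternatives, 148 stayed within 1.5 times the count reported. The count of 4 in treated RKO knockout, over untreated cells or day 0, did so in each setting tried, guides left out included. The 148 include counts of 0 that stayed at 0, and in 10 of 17 comparisons the count moved in some setting. Of 816 alternative values of the medians of single genes, 362 moved by more than counting error. In untreated RKO the count of 1 became 4 with scaling to non-targeting guides, 0 with the authors' values, and 0 to 3 as guides were left out. With a median past 1 alone, which ignores the non-targeting range, 3 genes were called in SW620 knockout at 0.38 µM over untreated cells and over day 0, 1 at 0.5 µM in each, and 3 between doses. The same rule called 4 genes in treated RKO activation and 1 and 3 in SW620 activation at 0.38 and 0.5 µM. It calls many genes of any kind, such as 5808 lower and 4790 higher of 19091 in SW620 knockout at 0.5 µM, where 480 and 37 were called with the range, and 5247 and 5055 of 19011 between doses, against 336 and 72. Leaving out guides gave up to 3 calls at 0.38 µM over untreated cells, 4 over day 0 and 1 at 0.5 µM over day 0. The range of olfactory receptor guides gave 0 calls at 0.38 µM over day 0, in treated RKO activation and for RKO minus SW620 at 0.5 µM. In treated RKO activation scaling by total counts or by non-targeting guides gave 2 calls, and leaving out guides 0 to 2. SEPSECS reversed there, to a median of 1.21. Apart from changes that follow from the setting's own construction, the cause was not tested.

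Scaling by total counts shifted the median of all genes in treated RKO knockout from 0.03 to -1.27, with PSTK at 3.01, SEPHS2 at 3.21, SEPSECS at 2.12 and EEFSEC at 3.62. In that comparison 293 genes were called higher and 505 lower, against 178 and 429 with total counts, 2097 and 1458 with the median past 1 alone, and 207 and 78 with olfactory receptor guides.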
